A study of Homo sapiens with 6 samples.

Results

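The genes described here are 10 genes of MHC class II antigen presentation: the DR and DP chains HLA-DRA, HLA-DRB1, HLA-DRB5, HLA-DPA1 and HLA-DPB1, the peptide exchange factor chains HLA-DMA and HLA-DMB, the invariant chain CD74, and the transcriptional regulators CIITA and RFX5. They were taken by symbol from an RNA-seq table of YAPC cells, an established human pancreatic ductal adenocarcinoma line, and make up 10 of 25442 genes on primary chromosomes. Both groups carried an rtTA transactivator and a retroviral pRetroX-Tight-Puro plasmid and were treated with doxycycline (Dox) for 6 days: the plasmid was empty in YAPC-iEV cells (3 libraries) and held a Dox-inducible GLI2 in YAPC-iGLI2 cells (3 libraries). The comparison asked how transcript levels differed when GLI2, a transcription factor of the Hedgehog pathway, was expressed. Each plasmid was introduced into its own culture, whether the selected cells were a pool or a clone is not given in the sources used here, and no library without Dox was analysed here, so the effect of GLI2 and a difference between the cell populations cannot be told apart. The list was drawn up with the results of this same comparison in view, so the members' differences are given as a description, with no test.

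Class II molecules are pairs of an alpha and a beta chain that carry peptides from the endosomal route to the surface, where CD4 T cells read them. CD74 occupies the groove of new pairs until it is degraded in endosomes, and HLA-DM then exchanges its last fragment, CLIP, for other peptides. Transcription of the class II chains, and in part that of CD74, depends on CIITA, a coactivator that does not bind DNA itself but docks on the RFX complex (RFX5, RFXANK and RFXAP), CREB1 and NF-Y at the conserved S, X and Y boxes of the promoters. CIITA is made constitutively in professional antigen-presenting cells and is induced by interferon gamma in most others, carcinoma cells included.

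The promoter stretches below show letters in members that resemble the boxes where RFX and NF-Y are known to bind in class II promoters. RefSeq start site windows (GRCh38.p14, 250 bases before to 50 after each start, on the strand of the gene) were matched for 8 of the 10 members, and HLA-DRA and CIITA had no entry. The capitals mark X-box-like letters (AG, 2 bases of any kind, AC, 3 bases of any kind and TG) and the next ATTGG (the core of the Y box) or its complement CCAAT, with 8 bases of sequence on either side. All are on the minus strand and are written 5′ to 3′ in the direction of the gene.
HLA-DRB1, chr6:32589882-32589935: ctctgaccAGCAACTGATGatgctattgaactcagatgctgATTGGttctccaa
HLA-DRB5, chr6:32530365-32530418: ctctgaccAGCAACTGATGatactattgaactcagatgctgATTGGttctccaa
HLA-DMA, chr6:32953164-32953218: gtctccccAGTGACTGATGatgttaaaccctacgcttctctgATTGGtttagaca
HLA-DMB, chr6:32941038-32941124: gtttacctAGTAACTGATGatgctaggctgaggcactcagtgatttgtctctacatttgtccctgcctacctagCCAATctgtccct
CD74, chr5:150412951-150412999: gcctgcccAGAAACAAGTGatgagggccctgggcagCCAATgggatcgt

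The HLA-DRB1 and HLA-DRB5 stretches were identical at 53 of 54 bases. From the first X-like letter to the first letter of ATTGG they held 33 bases, and HLA-DMA held 34. In HLA-DMB the second motif was CCAAT, 66 bases on, and in CD74 it was CCAAT, 28 bases on. Neither held the spacing or the orientation of the HLA-DRB1, HLA-DRB5 and HLA-DMA stretches. Searched on both strands, the X-like letters were in the windows of 6 of the 8 members (HLA-DRB1, HLA-DRB5, HLA-DMA, HLA-DMB, CD74 and RFX5) and in 12.5% of all 35116 windows. The 8 members had 11 windows, and a member was counted if any of its windows matched. The shares of all windows, here and below, are per window and so not in the same unit. ATTGG was in 7 of the 8, all but HLA-DPA1, and in 34.6% of windows. The X-like letters followed by ATTGG within 35 bases on the same strand, which counts part of the matches above again, was in 3 of the 8 (HLA-DRB1, HLA-DRB5 and HLA-DMA) and in 0.339% of windows. The letters were chosen by hand to resemble the known boxes, and a match is a description of these windows.

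The values were read as FPKM, fragments scaled by transcript length and by a factor for the library, so levels can be compared between genes of different length. How that factor was set is not known here. The depth of the libraries is unknown, since FPKM values keep no read totals. GLI2 (chr2:121554867-121750229 on hg19) was at 0.344 to 0.466 FPKM in the iEV libraries and at 94.5, 207 and 195 FPKM in iGLI2 replicates 1, 2 and 3, as the labels state. Over the 12493 genes tested, which averaged 1 FPKM or more across the libraries, the median log2 difference was -0.015, and 21.9% passed an adjusted p of 0.05 (limma with Benjamini-Hochberg adjustment), 10.1% higher and 11.8% lower in iGLI2. Of 15 leukocyte markers, 13 were under the filter with at most 1.03 FPKM in any library, among them PTPRC (CD45) at 0.0115 to 0.0343 FPKM, and CD53, MS4A1 and TYROBP were at 0 in all 6 libraries. In a fit without the filter, CD79A was called higher and LST1 lower in iGLI2 (adjusted p = 0.00876 and 0.0461 by limma). The summed level of that list was 97.3 to 116 FPKM in iEV and 131 to 144 FPKM in iGLI2, and most of it was LAPTM5, which rose (log2 difference 0.42, adjusted p = 0.0241 by limma), while CD14, the other one tested, fell from 4.64 to 1.62 FPKM (-1.11, adjusted p = 0.00274 by limma). The part of such cells in the results was not tested. Of 7 ductal epithelial markers, KRT7, KRT19, EPCAM, CDH1 and MUC1 were detected and summed to 1914 to 2064 FPKM in iEV and 1731 to 2014 FPKM in iGLI2, of which EPCAM and CDH1 rose and MUC1 fell (adjusted p = 0.00709, 0.0169 and 0.000131 by limma), while KRT8 and KRT18 were listed at 0 in all 6 libraries, which in such a table can be a failed estimate.

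All 10 members were lower in iGLI2, and the 3 iGLI2 libraries lay below the 3 iEV libraries for every one of them. Of all genes tested, 22.8% had groups that did not overlap with iGLI2 lower. The iGLI2 mean was 2.80% to 28.6% of the iEV mean in 9 of the 10 members and 73.3% in RFX5. Of the 10 members, 9 passed the filter, 4 of them only through the iEV libraries since their iGLI2 means were under 1 FPKM (HLA-DRB5, HLA-DPA1, HLA-DMB and CIITA), and 9 were past the limma threshold against a background of 11.8% lower. Since the list was proposed from this contrast, nothing is read from these counts. In RNA from whole cultures, fewer expressing cells and less RNA per cell cannot be told apart.

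**Figure D1:**
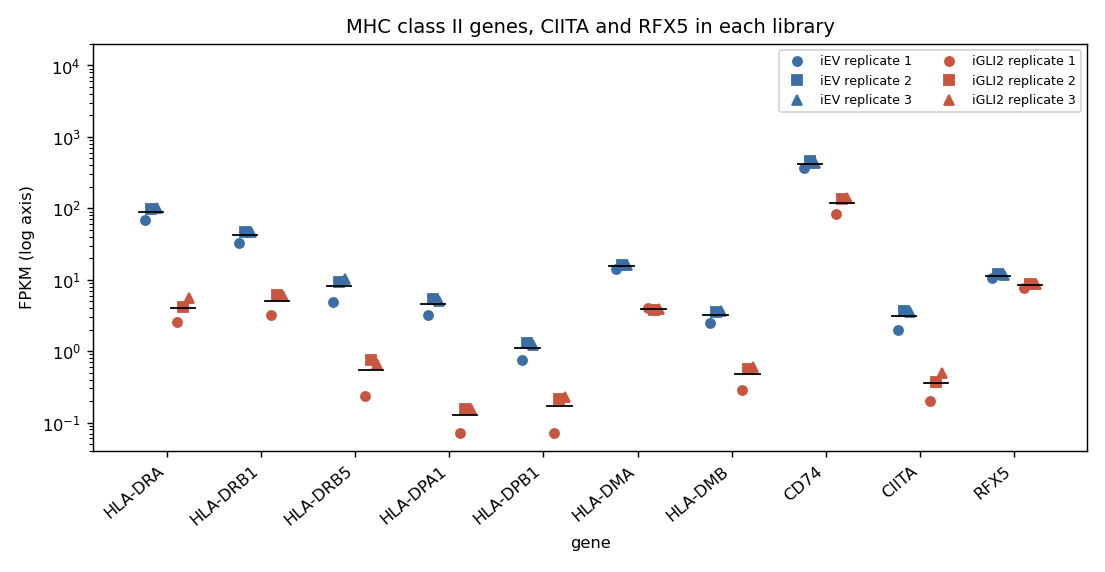
FPKM on a log axis (vertical) of the 10 genes (horizontal) in each of the 6 libraries, with iEV in blue, iGLI2 in red, 1 marker shape per replicate number, and bars at the group means. The 2 groups are separate for all 10 genes, from HLA-DRA (88.6 against 4.06 FPKM) to RFX5 (11.3 against 8.31 FPKM), and replicate 1 is the lowest library of its group in every case but HLA-DMA in iGLI2.

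Among the regulators, CIITA (chr16:10971055-11018840 on hg19), the coactivator that sets class II transcription, was at 1.98, 3.67 and 3.57 FPKM in iEV replicates 1, 2 and 3 and at 0.200, 0.370 and 0.493 FPKM in iGLI2 replicates 1, 2 and 3. Every iGLI2 library was under 1 FPKM and every iEV library was above it. The means were 3.07 ± 0.947 against 0.354 ± 0.147 FPKM (SD, n = 3 each, as for all means below), 8.67-fold lower in iGLI2, and the difference on the log2(FPKM + 1) scale was -1.56 (SE 0.203). That scale understates the change of genes near 1 FPKM, and with a pseudocount of 0.1 the CIITA difference was -2.81.

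RFX5 (chr1:151313116-151320367), the DNA-binding subunit of the RFX complex, was at 10.5, 11.9 and 11.6 FPKM in iEV and at 7.62, 8.58 and 8.73 FPKM in iGLI2. The groups did not overlap, but the gap between them was small: the means were 11.3 ± 0.732 and 8.31 ± 0.601 FPKM, a log2 difference of -0.41 (SE 0.0775). The level in iGLI2 was 73.3% of that in iEV, against 11.5% for CIITA, and RFX5 ranked 1373 from the lowest difference among the 12493 genes tested, where CIITA ranked 124.

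HLA-DRA (chr6:32407619-32412826), the alpha chain of DR and the most abundant class II chain in iEV, was at 68.2, 97.2 and 100.4 FPKM in iEV replicates and at 2.58, 4.13 and 5.47 FPKM in iGLI2 replicates. The highest iGLI2 library was far under the lowest iEV library. The means were 88.6 ± 17.7 and 4.06 ± 1.45 FPKM, 21.8-fold lower in iGLI2, with a log2 difference of -4.17 (SE 0.253) that ranked 8 from the lowest of the 12493 genes.

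HLA-DRB1 (chr6:32546547-32557613), the main DR beta chain, was at 32.4, 46.5 and 46.3 FPKM in iEV and at 3.23, 6.06 and 5.98 FPKM in iGLI2. HLA-DRB5 (chr6:32485154-32498006), a second DR beta gene carried on some haplotypes, was at 4.89, 9.38 and 10.2 FPKM in iEV and at 0.235, 0.743 and 0.656 FPKM in iGLI2. For both beta chains replicate 1 was the lowest library of each group, and no iGLI2 library came near an iEV library. HLA-DRB1 was 8.19-fold lower by the means (41.7 ± 8.07 against 5.09 ± 1.61 FPKM), with a log2 difference of -2.83 (SE 0.246). HLA-DRB5 was 15.0-fold lower (8.16 ± 2.87 against 0.544 ± 0.272 FPKM), with a log2 difference of -2.53 (SE 0.278). These beta chain genes are near-identical copies that share reads, and the alleles of the line can differ from the reference, so the split of reads between them is uncertain.

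HLA-DPA1 and HLA-DPB1, the alpha and beta chains of DP, lie head to head and were given the same locus in the table (chr6:33032346-33057473). HLA-DPA1 was at 3.21, 5.45 and 5.03 FPKM in iEV and at 0.0711, 0.156 and 0.157 FPKM in iGLI2. HLA-DPB1 was at 0.752, 1.32 and 1.24 FPKM in iEV and at 0.0723, 0.211 and 0.224 FPKM in iGLI2. Both were far under 1 FPKM in iGLI2, and the groups stood apart for each. HLA-DPA1 had the largest fold of the members by the means, 35.7-fold lower (4.56 ± 1.19 against 0.128 ± 0.0493 FPKM), although its log2 difference of -2.28 (SE 0.175) with a pseudocount of 1 was smaller than that of HLA-DRA, and with a pseudocount of 0.1 it was -4.34. HLA-DPB1 had a mean under 1 FPKM over the 6 libraries and was left out by the filter; it was 6.52-fold lower (1.1 ± 0.306 against 0.169 ± 0.0842 FPKM), and without the filter its log2 difference was -0.84 (SE 0.121).

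HLA-DMA (chr6:32916391-32920899) and HLA-DMB (chr6:32902406-32908847) encode the chains of HLA-DM, which removes CLIP from class II molecules. HLA-DMA was at 14.3, 16.0 and 16.3 FPKM in iEV and at 4.03, 3.82 and 3.91 FPKM in iGLI2. HLA-DMB was at 2.50, 3.56 and 3.59 FPKM in iEV and at 0.286, 0.563 and 0.590 FPKM in iGLI2. The iGLI2 libraries were nearly level for HLA-DMA, and replicate 1 was again the lowest for HLA-DMB. HLA-DMA was 3.97-fold lower by the means (15.5 ± 1.07 against 3.92 ± 0.104 FPKM, log2 difference -1.75, SE 0.0678). HLA-DMB was 6.71-fold lower (3.22 ± 0.619 against 0.480 ± 0.168 FPKM, log2 difference -1.51, SE 0.152).

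CD74 (chr5:149781200-149792499), the invariant chain that escorts new class II pairs to the endosome, had the highest level of the members in every library. It was at 366, 454 and 428 FPKM in iEV and at 84.0, 134 and 140 FPKM in iGLI2. The groups were far apart, yet CD74 in iGLI2 replicates 2 and 3 was still above HLA-DRA in any iEV library. The means were 416 ± 45.4 and 119 ± 30.6 FPKM, 3.49-fold lower in iGLI2, with a log2 difference of -1.83 (SE 0.211) that did not depend on the pseudocount (-1.83 with 0.1).

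The members were therefore lower by different amounts, from 2.80% of the iEV level left for HLA-DPA1 and 4.58% for HLA-DRA to 25.2% for HLA-DMA, 28.6% for CD74 and 73.3% for RFX5. The ratio of CD74 to HLA-DRA was 5.36, 4.68 and 4.26 in iEV and 32.5, 32.3 and 25.5 in iGLI2. The share of CD74 in the summed FPKM of the 10 genes was 72.5%, 70.0% and 68.3% in iEV and 82.1%, 84.4% and 84.2% in iGLI2, while the sum itself went from 594 ± 77.6 to 142 ± 34.7 FPKM. The transcripts left in iGLI2 thus held relatively more CD74, without overlap between the groups.

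The balance within each chain pair also differed. HLA-DRA over HLA-DRB1 was 2.11, 2.09 and 2.17 in iEV and 0.798, 0.682 and 0.916 in iGLI2, so the alpha chain was above the beta chain in every iEV library and below it in every iGLI2 library. HLA-DPA1 over HLA-DPB1 was 4.27, 4.14 and 4.06 in iEV and 0.984, 0.739 and 0.700 in iGLI2. HLA-DMA over HLA-DMB was 5.72, 4.51 and 4.53 in iEV and 14.1, 6.79 and 6.62 in iGLI2, the opposite direction for the alpha over the beta chain. HLA-DRB1 over HLA-DRB5 was 5.37 ± 1.11 in iEV and 10.3 ± 3.01 in iGLI2. Relative to CIITA, HLA-DRA was at 34.5, 26.5 and 28.2 in iEV and at 12.9, 11.2 and 11.1 in iGLI2, so HLA-DRA was lower by more than CIITA was. In iGLI2 the HLA-DPA1, HLA-DPB1, HLA-DMB, HLA-DRB5 and CIITA terms of these ratios were at or under 0.743 FPKM, where the counting error is unknown and can be large. The HLA-DRB1 terms carry the uncertain split of reads described above, so which DR chain is the higher in a library is uncertain too.

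**Figure D2:**
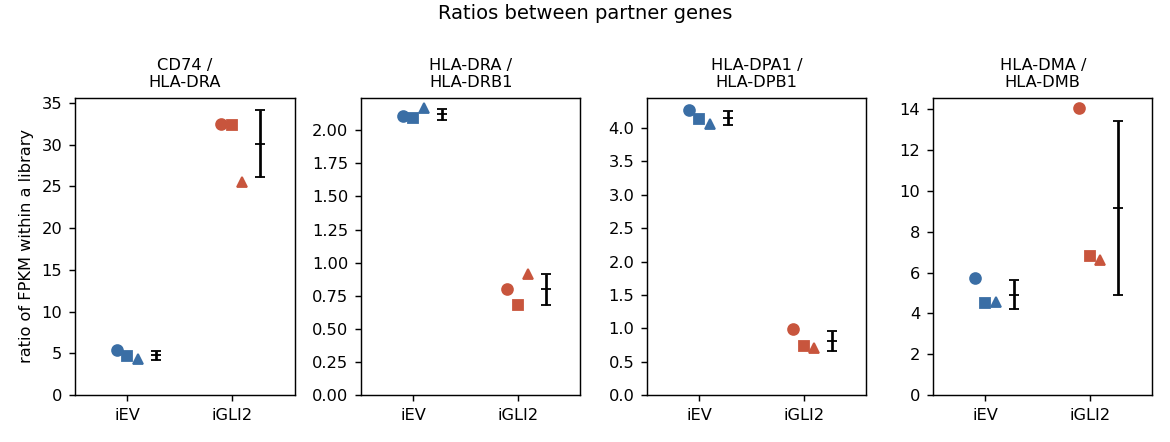
Ratio of FPKM within a library (vertical, linear axis from 0) for 4 pairs of members in iEV (blue) and iGLI2 (red), with marker shapes for the replicates (circle 1, square 2, triangle 3) and bars at mean ± SD. CD74 over HLA-DRA went from 4.77 ± 0.556 to 30.1 ± 3.98, and HLA-DRA over HLA-DRB1 from 2.12 ± 0.0420 to 0.799 ± 0.117.

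Within each group, replicate 1 stood apart. It was the lowest library in iEV for 10 of 10 members and in iGLI2 for 9 of 10, against 45.0% and 53.9% of the genes tested. The median ratio of replicate 1 to the mean of replicates 2 and 3 was 0.695 in iEV and 0.517 in iGLI2 over the members, and 0.987 and 0.947 over the genes tested. HLA-DRB5 (0.499 and 0.336) and CIITA (0.547 and 0.462) were among the lowest, and HLA-DMA (0.886 and 1.04) and RFX5 (0.894 and 0.881) were the closest to the other replicates. GLI2 itself was lowest in iGLI2 replicate 1, and its part in these levels was not tested. In fits that dropped any 1 library, the differences ran from -4.37 to -3.94 for HLA-DRA, -1.78 to -1.45 for CIITA and -1.96 to -1.59 for CD74. Their sign could not change in these fits, since the groups did not overlap.

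Other class II genes were measured at low levels. Of 10 further class II genes, 8 were in the table on primary chromosomes, and none reached the filter. All 8 had a lower mean in iGLI2, 4 of them without overlap, but some of these means were near 0. HLA-DPB2 was at 0.0175 against 0.0136 FPKM, and HLA-DQA2 was above 0 only in iEV replicate 2. The share of all genes without overlap at such levels was not computed, so nothing is read from these counts. HLA-DQB1, the DQ beta chain, was at 0.501, 1.45 and 1.53 FPKM in iEV and at 0.0178, 0.0405 and 0.0221 FPKM in iGLI2, 43.3-fold lower by the means. Its partner HLA-DQA1 was at 0.0865, 0.303 and 0.221 FPKM in iEV and was listed at 0 in the 3 iGLI2 libraries. HLA-DOA, a chain of the HLA-DM inhibitor HLA-DO, was at 0.477, 0.776 and 0.837 FPKM in iEV and at 0.0556, 0.141 and 0.230 FPKM in iGLI2. In a fit without the filter over 20035 genes, of which 7.62% were called lower, limma called HLA-DQB1 (log2 difference -1.03, adjusted p = 0.0259), HLA-DOA (-0.57, adjusted p = 0.0184) and HLA-DQA1 (-0.26, adjusted p = 0.0497) lower, and HLA-DOB, the other HLA-DO chain, did not pass (adjusted p = 0.487). The promoter window of HLA-DQB1 held the same pair of motifs as HLA-DRB1, 33 bases apart as above. Of the class II genes outside the members, only HLA-DQB1 was looked up for such a stretch, with earlier results known. The X-like letters followed by ATTGG within 35 bases were in 0.339% of all windows, and nothing is read from this match.
HLA-DQB1, chr6:32666733-32666786, minus strand: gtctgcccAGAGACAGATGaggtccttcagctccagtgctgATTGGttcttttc

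**Figure D3:**
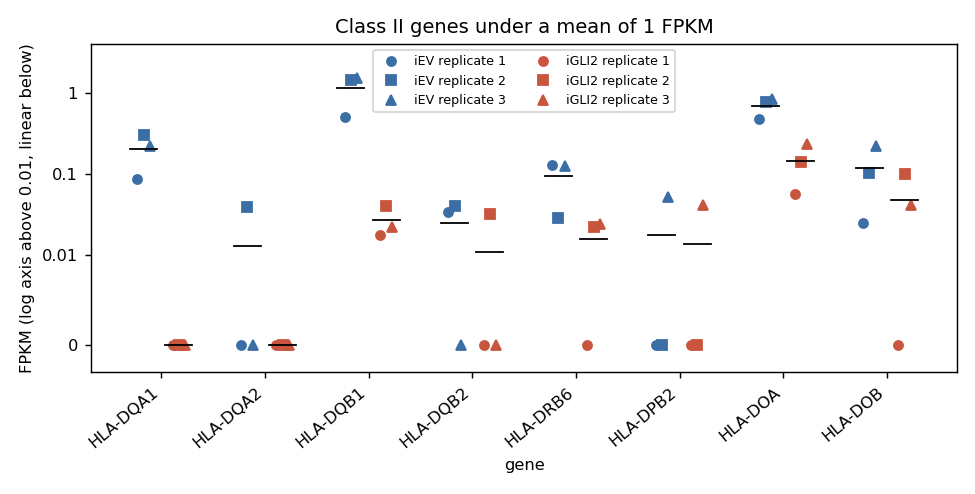
FPKM (vertical, logarithmic above 0.01 and linear below) of class II genes with a mean under 1 FPKM (horizontal) in the 6 libraries, iEV in blue and iGLI2 in red, 1 marker shape per replicate, bars at the group means. HLA-DQB1 and HLA-DOA lie apart between the groups, and HLA-DQA1 is at 0 in all 3 iGLI2 libraries.

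Of 18 transcription factors and cofactors that act on class II promoters or on CIITA, 14 were tested, of which 2 rose, 1 fell and 11 were called in neither direction, with a median log2 difference of 0.13 against -0.015 for all genes. The share called was close to the 21.9% of all genes tested, so nothing about these factors as a group is read from it. RFXANK, the scaffold of the RFX complex, was at 21.2, 24.7 and 22.8 FPKM in iEV and at 16.7, 23.2 and 25.0 FPKM in iGLI2 (adjusted p = 0.698 by limma). RFXAP, the remaining RFX subunit, was at 1.26 ± 0.194 and 0.820 ± 0.171 FPKM (log2 difference -0.31, adjusted p = 0.127 by limma). NFYA, the regulatory subunit of NF-Y, rose from 26.6 ± 1.13 to 38.0 ± 1.72 FPKM (log2 difference 0.50, adjusted p = 0.00404 by limma). NFYB, NFYC, CREB1, CREBBP, EP300 and SMARCA4 did not pass. KAT2B (PCAF), an acetyltransferase that acts on CIITA, fell from 4.16 ± 0.371 to 1.75 ± 0.530 FPKM (log2 difference -0.92, adjusted p = 0.00969 by limma). HDAC2, a histone deacetylase, rose from 30.1 ± 0.218 to 40.6 ± 3.18 FPKM (log2 difference 0.42, adjusted p = 0.0113 by limma), and lost that call without iEV replicate 2 (adjusted p = 0.0576 by limma) or 3 (adjusted p = 0.0514 by limma). The myeloid and lymphoid regulators SPI1 and IRF4 were at or near 0, and IRF8, of the same kind, was under the filter at 0.987, 1.25 and 1.09 FPKM in iEV and at 0.499, 0.323 and 0.361 FPKM in iGLI2. In the fit without the filter IRF8 was called lower (log2 difference -0.598, adjusted p = 0.00549 by limma).

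The enzymes that process class II cargo moved in both directions. Of 12 genes for antigen processing and turnover, 10 were in the table and tested, of which 4 rose, 2 fell and 4 were called in neither direction, with a median log2 difference of 0.142. The background over all genes tested was 10.1% higher and 11.8% lower. IFI30 (GILT), the lysosomal reductase that opens disulfides of antigens, was at 33.8, 35.6 and 34.4 FPKM in iEV and at 11.8, 16.3 and 16.4 FPKM in iGLI2, and fell (log2 difference -1.18, SE 0.130, adjusted p = 0.00252 by limma). CTSS, the cathepsin that cuts CD74 in antigen-presenting cells, fell from 24.9 ± 2.34 to 17.1 ± 1.16 FPKM (log2 difference -0.52, adjusted p = 0.0119 by limma), a call lost without iEV replicate 2 (adjusted p = 0.0576 by limma). CTSV, also named CTSL2, the cathepsin that does so in thymic epithelium, was at 4.18, 3.85 and 3.89 FPKM in iEV and at 22.3, 27.2 and 28.2 FPKM in iGLI2. It had the largest rise of these lists, 2.43 (SE 0.0990) on the log2 scale (adjusted p = 0.000131 by limma). CTSB, a broad lysosomal cathepsin, rose from 197 ± 15.5 to 430 ± 79.0 FPKM (log2 difference 1.11, adjusted p = 0.00526 by limma), and CTSL, also named CTSL1, was at 64.1 ± 2.1 and 64.2 ± 8.08 FPKM (adjusted p = 0.976 by limma). CTSH, a lysosomal aminopeptidase, rose from 84.1 ± 2.40 to 182 ± 47.4 FPKM (log2 difference 1.07, adjusted p = 0.0151 by limma), a call lost without any iEV library or without iGLI2 replicate 2 (adjusted p up to 0.0659 by limma without iEV replicate 3). LGMN, an asparagine endopeptidase, rose from 52.8 ± 0.510 to 64.9 ± 3.84 FPKM (log2 difference 0.29, adjusted p = 0.0247 by limma), a call lost without any 1 of 5 libraries, all but iGLI2 replicate 1 (adjusted p up to 0.0954 by limma without iEV replicate 2), and under quantile normalization (adjusted p = 0.0511 by limma).

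Interferon gamma is the usual inducer of CIITA, and its own transcript IFNG was at 0 in all 6 libraries. Of 16 genes of the pathway, 14 were tested, of which 1 rose, 2 fell and 11 were called in neither direction, with a median log2 difference of -0.032. The share called was close to the 21.9% of all genes tested, so nothing about the pathway as a group is read from it. IFNGR1, the ligand-binding receptor chain, was at 40.6, 61.8 and 57.8 FPKM in iEV and at 20.4, 23.9 and 22.8 FPKM in iGLI2. No libraries overlapped, and IFNGR1 fell by 1.20 on the log2 scale (adjusted p = 0.00546 by limma). The other receptor chain IFNGR2 (adjusted p = 0.285 by limma) and the kinases JAK1 (adjusted p = 0.827 by limma) and JAK2 (adjusted p = 0.143 by limma) did not pass. IRF1, a transcription factor that acts on the CIITA promoter, fell from 46.9 ± 7.24 to 28.0 ± 3.8 FPKM (log2 difference -0.72, adjusted p = 0.0218 by limma). That call was lost without iEV replicate 2 or 3 or iGLI2 replicate 2 or 3 (adjusted p up to 0.0882 by limma without iEV replicate 3). The targets GBP1, GBP2, CXCL10 and CXCL11 did not pass.

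MHC class I genes, which are controlled by NLRC5 through similar promoter boxes, held 10 genes that fell. Of 14 such genes 13 were tested, and 10 were lower, 0 higher and 3 were called in neither direction, with a median log2 difference of -0.445, where the 9 tested members ran from -4.17 to -0.41. Over all genes tested, 11.8% were called lower and 10.1% higher. NLRC5 itself was at 5.86, 5.50 and 5.39 FPKM in iEV and at 4.17, 3.87 and 3.49 FPKM in iGLI2, a log2 difference of -0.45 (adjusted p = 0.0114 by limma) whose call was lost without iEV replicate 2 (adjusted p = 0.0543 by limma) or iGLI2 replicate 2 (adjusted p = 0.0524 by limma). HLA-C did not pass (adjusted p = 0.265 by limma). PSMB9, an immunoproteasome subunit, fell from 54.5 ± 5.52 to 31.1 ± 2.59 FPKM (log2 difference -0.79, adjusted p = 0.00404 by limma). HLA-F fell from 83.6 ± 9.63 to 48.1 ± 6.25 FPKM (log2 difference -0.79, adjusted p = 0.0103 by limma), a call lost without iEV replicate 2 (adjusted p = 0.0512 by limma). TAP2 (log2 difference -0.39, adjusted p = 0.00758 by limma), a chain of the peptide transporter, and TAPBP (-0.54, adjusted p = 0.00304 by limma), the tapasin gene in an entry merged with ZBTB22, also fell, and like PSMB9 they kept their calls under all 14 other fits. HLA-B (-0.46, adjusted p = 0.0221 by limma), HLA-E (-0.47, adjusted p = 0.0251 by limma), TAP1 (-0.43, adjusted p = 0.0191 by limma), PSMB10 (-0.79, adjusted p = 0.0382 by limma) and B2M (2529 ± 61.3 to 1871 ± 287 FPKM, adjusted p = 0.0412 by limma) completed the 10. Without iEV replicate 2 none of these 5 passed (adjusted p from 0.0814 for TAP1 to 0.128 for PSMB10 by limma), nor did they without iEV replicate 3 (0.0793 for TAP1 to 0.146 for B2M by limma) or iGLI2 replicate 2 (0.0613 for TAP1 to 0.152 for B2M by limma). HLA-E, TAP1, PSMB10 and B2M also lost their calls without iGLI2 replicate 3 (0.0513 for PSMB10 to 0.135 for B2M by limma), PSMB10 (0.0715) and B2M (0.1003) without iEV replicate 1, and B2M under other scalings (adjusted p up to 0.454 by limma with quantile normalization).

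Of 8 genes for costimulation and adhesion, the signals that accompany class II recognition, 5 were tested, of which 1 rose, 0 fell and 4 were called in neither direction, with a median log2 difference of -0.495. With 21.9% of all genes tested called, nothing is read from 1 of 5. The costimulatory ligands CD80 and CD86 were at or under 0.211 FPKM in every library. CD40, a receptor for T cell help, was at 28.9, 34.8 and 36.2 FPKM in iEV and at 18.2, 25.3 and 25.5 FPKM in iGLI2 (adjusted p = 0.0625 by limma). CD274 (PD-L1) rose from 3.29 ± 0.516 to 4.69 ± 0.252 FPKM (adjusted p = 0.0405 by limma), a call lost without iEV replicate 2 or 3 or iGLI2 replicate 2 or 3, with adjusted p up to 0.133 by limma without iGLI2 replicate 2. Over these lists together, 56 genes were tested, beside a background of 10.1% higher and 11.8% lower. Of the 56, 8 rose, 15 fell and 33 were called in neither direction. Without iEV replicate 2, the library that moved both counts furthest down, 3 were called higher and 6 lower.

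**Figure D4:**
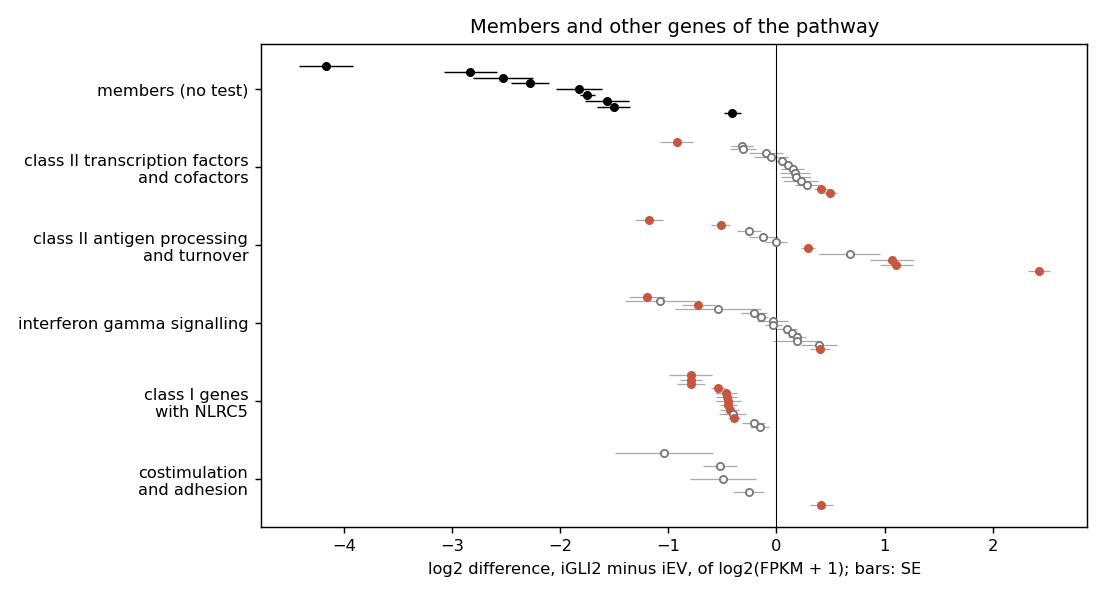
Difference between iGLI2 and iEV on the log2(FPKM + 1) scale (horizontal, bars are SE) for the 9 tested members (black, no test) and the tested genes of 5 lists (vertical), red where the adjusted p from limma was under 0.05 and open grey otherwise. All members but RFX5 lie at or under -1.51, and of the listed genes CTSV lies furthest to the right at 2.43.

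Of the 10 members, 7 lie on chromosome 6, in a stretch of 649.855 kb from the start of HLA-DRA to the end of HLA-DPB1 that also holds 7 other tested genes. Of these neighbours, 3 fell (TAP2, TAP1 and PSMB9), 0 rose and 4 were called in neither direction, and their median log2 difference was -0.392. Beside a background of 11.8% lower, nothing is read from a count over 7 genes. BRD2, a bromodomain gene that lies between HLA-DMA and the DP genes, was at 35.6, 36.1 and 36.6 FPKM in iEV and at 33.2, 35.2 and 36.6 FPKM in iGLI2 (log2 difference -0.05, adjusted p = 0.631 by limma). The neighbours that fell belong to the class I peptide loading list above, and TAP1 and PSMB8 share a locus in the table, so their reads may have been split between them. CD74, CIITA and RFX5 lie on chromosomes 5, 16 and 1.

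**Figure D5:**
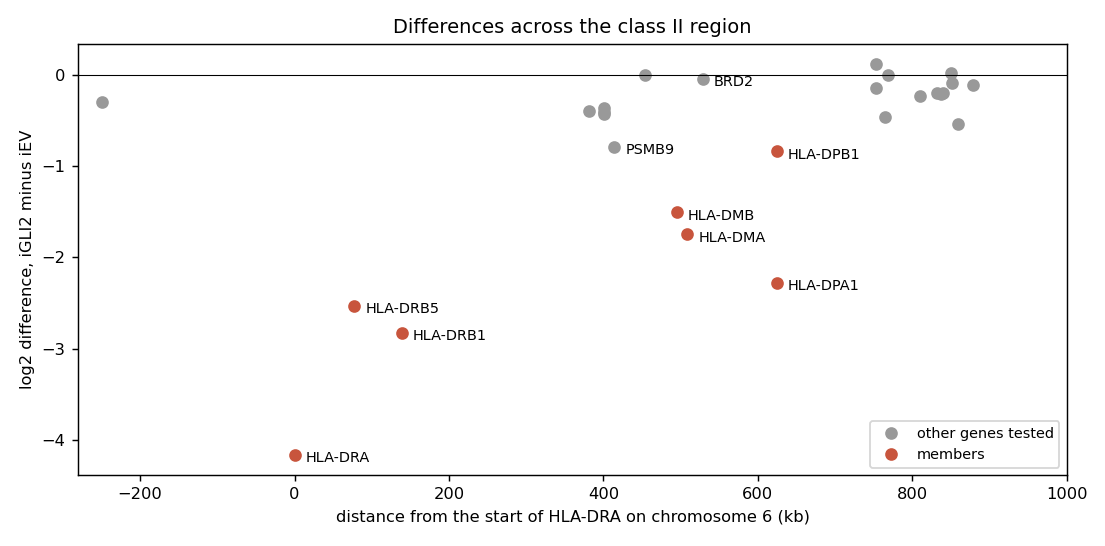
Difference between iGLI2 and iEV on the log2(FPKM + 1) scale (vertical) against distance in kb from the start of HLA-DRA (horizontal) for the class II members (red, 7 genes) and the other tested genes within 250 kb of the stretch (grey), with HLA-DPB1 from the fit without the filter. The members run from -4.17 to -0.84, while BRD2 between them is at -0.05.

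Across the 6 libraries on the log2(FPKM + 1) scale, the other 9 members correlated with HLA-DRA at r = 0.977 (RFX5 and HLA-DPB1) to 0.996 (HLA-DRB1 and HLA-DMB). Of 9032 other genes averaging 5 FPKM or more, 6.92% had r of at least 0.95, since any gene that separates the 2 groups scores high. The 5 genes most like HLA-DRA were TNFRSF14 (r = 0.9993), the receptor HVEM, ILK (0.9988), an integrin-linked kinase, NQO1 (0.9986), a quinone reductase, CD82 (0.9986), a tetraspanin, and DOCK9 (0.9984), an exchange factor for CDC42. TNFRSF14 was at 74.9, 80.1 and 80.2 FPKM in iEV and at 50.7, 52.5 and 54.5 FPKM in iGLI2, so it followed the order of the libraries with a far smaller difference. CD82 was at 67.5, 78.8 and 79.1 FPKM in iEV and at 19.9, 25.3 and 25.4 FPKM in iGLI2. Replicate 1 was the lowest library of both groups in all 5 genes, as it was in 34.9% of all genes tested. The 5 were picked by correlation over these same libraries, so nothing is read from that order.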

How the data were processed

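RNA was extracted from YAPC-iEV and YAPC-iGLI2 cells after 6 days of Dox, and libraries were made from total RNA with the Illumina TruSeq RNA kit. The authors trimmed reads with Trimmomatic and aligned them to hg19 with TopHat2, and Cuffdiff 2.1.1 gave the deposited values, which were read as FPKM from their range and from that tool. For each symbol the entry on a primary chromosome with the highest mean was kept, and the 38 entries of members on haplotype contigs were 0 in every library. The 12493 genes averaging 1 FPKM or more entered a limma fit (version 3.58.1, R 4.3.3) of log2(FPKM + 1) (trend, Benjamini-Hochberg adjustment, threshold 0.05). The script was tested on simulated data. Members carry no p-value, and an exact permutation test of 3 against 3 libraries cannot go below 0.1 (two-sided). The labels do not say whether replicates were separate cultures, and the codes in the sample titles (1A, 1B and 2A in iEV, 1A, 1B and 2B in iGLI2) are not explained, so libraries may share a culture or preparation within or across groups and p-values measure only the spread between these libraries. Depth is unknown and no counting interval can be given. The members, the gene lists and the named genes (all members, every gene of the lists past the threshold or with a described role, and the 5 genes most like HLA-DRA) were chosen with earlier results of these data known. Promoter windows came from RefSeq. Some genes of the lists are counted but not reported here by name. MARCH1 and MARCH8 were not matched by name, and HLA-DRB3 and HLA-DRB4 were not analysed here.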

Additional observations from a re-analysis of the deposited data

How the results depend on the processing

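Under 14 other fits and a sum over all entries of a symbol, the 132 log2 differences of members were all negative. Many of these values could not differ in sign. The sum repeats the main value, since the contig entries were 0. Another filter, a replicate block or no trend also leaves the log2 difference itself unchanged. Leaving out 1 library could not turn the sign, since the groups did not overlap for any member. Of the 132, 5 moved by more than the replicate SD, all with a pseudocount of 0.1 (HLA-DRB5 -3.72, HLA-DPA1 -4.34, HLA-DMA -1.96, HLA-DMB -2.54 and CIITA -2.81). A filter at a mean of 5 FPKM left 5 members past the threshold instead of 9, since fewer were tested, with 1914 genes called in all. Leaving out 1 library gave 8 to 9 members, beside 1223 to 3753 of the 12493 genes tested called in either direction. The members were chosen from this contrast, so nothing is read from these counts. Of 776 values of pathway genes, 697 stayed on the same side of the threshold and 0 reversed. Leaving out 1 library, limma called 1223 (without iEV replicate 2) to 3753 (without iGLI2 replicate 1) genes instead of 2742, 6 to 16 pathway genes lower instead of 15, and 3 to 13 higher instead of 8. B2M was called lower (adjusted p = 0.0412 by limma) but lost the call in 9 of 14 fits, PSMB10 and LGMN in 6. With small RNA genes left out and libraries rescaled, 3016 genes were called, 59.4% of them higher against 46.0% otherwise. Whether the replicate numbers pair the libraries is not settled. The r of deviations from the group means was 0.204, 0.0919 and 0.0276 for numbers 1, 2 and 3. That of number 1 was the highest of all pairs, while iEV replicate 2 correlated best with iGLI2 replicate 3 (0.117). With the replicate number as a block 3928 genes were called, 22 pathway genes lower and 10 higher. The added ones included CD40, ICAM1 and CD58 of the costimulation and adhesion list (adjusted p = 0.00922, 0.00331 and 0.0267 by limma, all lower). Depth could not be read from FPKM, so levels under 1 FPKM carry an unknown counting error.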
